A study of Mus musculus with 12 samples.

Results

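The 8 ephrin ligand genes of the mouse, Efna1 to Efna5 and Efnb1 to Efnb3, were followed through RNA sequencing of sorted pontine nucleus neurons. The members were taken by gene symbol, with no use of their measured values, and all 8 were found among the 23079 genes of the count table. All 8 also passed the filter on low counts, which left 14732 genes. The pontine nucleus is a hindbrain nucleus that relays cortical signals to the cerebellum, and its neurons arise from the rhombic lip, where Math1 (Atoh1) is expressed.

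The samples were CD-1 mouse embryos at E18.5 (day of gestation) in 3 labelled groups. Math1tdTomato (n = 6) was the reference, Hoxa5tdTomato (n = 3) was labelled through Hoxa5, and Math1Hoxa5-IRES-GFP (n = 3), as its name gives it, carried Hoxa5 with GFP in the Math1 lineage. The count columns name these groups Hoxa5_cre and Math1_Cag_lsl_Hoxa5, the second giving a Cag promoter, then a lox-stop-lox cassette, then Hoxa5. They split the references into Math1_creErt2 (n = 3) and Math1_tdT (n = 3). By these words the Hoxa5tdTomato libraries and the creErt2 references are called set 1 here, and the Math1Hoxa5-IRES-GFP libraries and the tdT references set 2. No label states this pairing, what separates both kinds of reference, when any inducible Cre was activated, or whether replicates came from separate embryos. The p-values below therefore measure the spread between these libraries, which may be technical.

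Set 1 held 9973484 to 13302076 counts per library and set 2 held 22355961 to 29820776, so that the effect of depth cannot be told apart from that of the set. Hoxa5 stood at 119 to 222 CPM (read counts scaled to library size) in the Hoxa5tdTomato libraries and at 4.35 to 32.2 CPM in the references. In the libraries labelled Math1Hoxa5-IRES-GFP it stood at 9.73, 16.8 and 82.0 CPM, so that 2 of the 3 lay within the range of the references and a raised Hoxa5 count was not seen there. Math1Hoxa5-IRES-GFP replicate 3 stood apart, with the fewest genes with a count (13074, against up to 16290) and correlations across genes with its replicates of 0.860 and 0.868, against 0.926 to 0.943 within the other groups. Sex varied within groups: 3 libraries had an Xist level of at most 10.9 CPM (tdT reference 2, Hoxa5tdTomato replicate 1 and Math1Hoxa5-IRES-GFP replicate 3), against at least 1570.1 CPM elsewhere. Of the pontine neuron markers, Barhl1 (105 to 345 CPM), Pax6 (161 to 528 CPM) and the vesicular glutamate transporter gene Slc17a6 (286 to 506 CPM) were present in every library, and Slc17a7 was near 0, with group means of 0.178 to 0.546 CPM.

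Ephrins are membrane-bound guidance cues that bind Eph receptor tyrosine kinases on neighbouring cells. Ephrin-A ligands are held by a lipid anchor and mostly bind EphA receptors, while ephrin-B ligands span the membrane, mostly bind EphB receptors and can signal back into the cell that carries them through a conserved cytoplasmic tail. In the developing brain they steer axons, set cell borders and act at forming synapses.

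The genes lie at 6 places of the genome (GRCm38, the build that mm10 names). Efna1 (chr3:89271733-89281142), Efna3 (chr3:89313899-89322965) and Efna4 (chr3:89333390-89338028) stand in a row on the minus strand of chromosome 3, with gaps of 32756 and 10424 bases. Efna2 is at chr10:80179482-80190010, Efna5 at chr17:62604184-62881317, Efnb1 at chrX:99136130-99148991, Efnb2 at chr8:8617434-8661242 and Efnb3 at chr11:69554092-69560205. The GENCODE M21 annotation places an antisense gene over 344 exonic bases of Efna3 and another over 168 exonic bases of Efna4. The strand setting of the counting is not given in the sources used here, so reads of these antisense genes cannot be told apart from those of Efna3 and Efna4.

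Efnb2 and Efnb3, the B ligands on which the results below turn, share with Efnb1 the coding end of the cytoplasmic tail, which carries the binding site for PDZ domain proteins. The last 99 coding bases, stop codon included, are shown 5′ to 3′ from the GENCODE M21 transcripts, with capitals at the 77 positions where all 3 genes have the same base.
Efnb1: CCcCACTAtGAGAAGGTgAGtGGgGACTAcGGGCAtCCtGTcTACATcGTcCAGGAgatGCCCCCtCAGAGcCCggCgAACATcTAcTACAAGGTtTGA
Efnb2: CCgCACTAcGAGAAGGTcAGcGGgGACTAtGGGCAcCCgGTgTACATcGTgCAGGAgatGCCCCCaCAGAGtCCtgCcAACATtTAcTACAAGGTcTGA
Efnb3: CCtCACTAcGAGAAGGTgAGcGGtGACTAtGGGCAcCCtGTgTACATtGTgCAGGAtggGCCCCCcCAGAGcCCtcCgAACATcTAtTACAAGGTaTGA
Efnb2 and Efnb3 were identical at 84 of these 99 bases (84.8%), yet over their whole coding sequences the longest identical run was 18 bases. The longest run between any pair of ephrin ligands was 23 bases, between Efna2 and Efna3.

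The level of each gene was compared per length, as CPM per kilobase of the gene length in the table. Over the 6 references Efna5 was highest at 30.8 ± 5.21 CPM per kilobase (SD, n = 6), followed by Efnb2 at 21.7 ± 5.94 and Efnb3 at 21.6 ± 3.43. Efnb2 and Efnb3 did not differ beyond their spread, and the highest Efnb2 library (32.0) lay above the lowest Efna5 library (22.0). Efna2 (6.45 ± 3.27) and Efna3 (6.34 ± 2.47) came next and overlapped with each other and with Efna4 (3.94 ± 1.21). Efnb1 (1.63 ± 0.72) and Efna1 (0.481 ± 0.502) were lowest, and their ranges overlapped. Efna5 lay above 86.9% of the tested genes in the references, Efnb2 above 80.4%, and Efna1 above 12.4%.

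The summed level of the 8 ligands was 85.9 to 105 CPM per kilobase in the references, 81.9 to 87.6 in Hoxa5tdTomato and 88.9, 89.0 and 156 in Math1Hoxa5-IRES-GFP. The value of 156 belonged to replicate 3, and the other libraries lay close together. Efnb2 made up 23.1% ± 4.57 of this sum in the references (SD, n = 6), 15.4% ± 4.71 in Hoxa5tdTomato (SD, n = 3) and 7.41% ± 2.19 in Math1Hoxa5-IRES-GFP (SD, n = 3). Efnb3 made up 23.2% ± 2.84, 37.0% ± 6.53 and 31.8% ± 5.13, and Efna5 33.2% ± 5.32, 30.4% ± 2.94 and 38.7% ± 1.92. The B ligands together took 39.2 to 55.5% in the references, 48.3 to 57.0% in Hoxa5tdTomato and 32.9 to 47.1% in Math1Hoxa5-IRES-GFP, ranges that overlap.

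**Figure D1:**
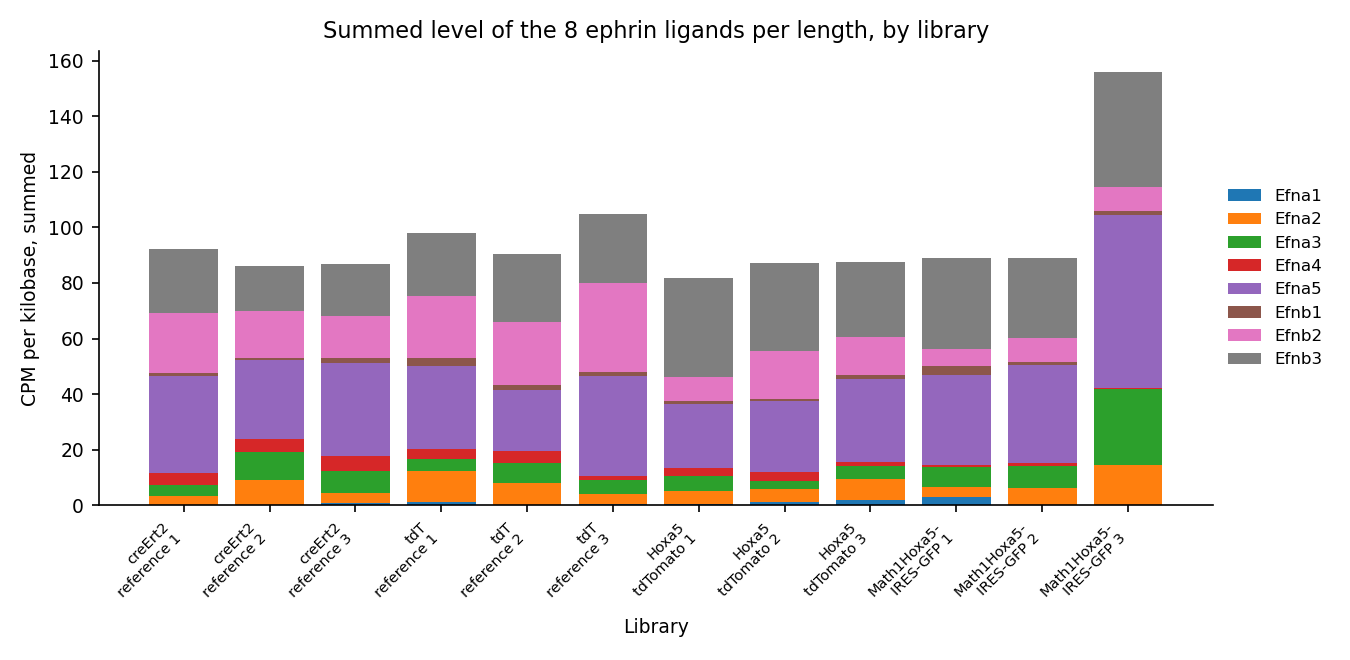
Level of the 8 ephrin ligands in CPM per kilobase of gene length (vertical axis), stacked for each of the 12 libraries (horizontal axis). The libraries sum to between 81.9 and 105 except Math1Hoxa5-IRES-GFP replicate 3 at 156, and the share of Efnb2 in the bar is smallest in the 3 Math1Hoxa5-IRES-GFP libraries, at 5.60 to 9.85%, against 10.5% or more elsewhere.

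The first results concern the transmembrane ligands. Efnb2, which marks arteries as well as neurons and is a known partner of Ephb4 and other EphB receptors, stood at 92.8, 72.4 and 65.1 CPM in the creErt2 references and at 97.3, 97.3 and 138 CPM in the tdT references. In Math1Hoxa5-IRES-GFP it stood at 26.1, 37.9 and 37.7 CPM. All 3 of these libraries lay below all 6 references, among them Math1Hoxa5-IRES-GFP replicate 3, which stood apart in other ways. Against the 6 references Efnb2 fell by 1.47 ± 0.28 on the log2 scale (fold change ± standard error), with an adjusted p of 0.00985 in edgeR's quasi-likelihood test (Benjamini-Hochberg over the 14732 genes). Against the tdT references of its own set the fold change was -1.71 ± 0.28 (edgeR adjusted p = 0.00586). Without Math1Hoxa5-IRES-GFP replicate 3 the pooled value was -1.55 (edgeR adjusted p = 0.0113).

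Efnb2 was the 1 ephrin ligand of 8 past the threshold of 0.05 in this comparison, in which 1.84% of all tested genes passed, and 0.543% passed as lower. Within set 2 it was again the 1 of 8, against a background of 0.862% (0.326% lower). The median fold change of the 8 ligands was 0.41 on the log2 scale, against -0.00 for all tested genes, and 6 of the 8 fitted values were above 0. This median depended in part on 1 library: without Math1Hoxa5-IRES-GFP replicate 3 it was 0.21, with 5 of 8 above 0. Within set 2 it was 0.31, and 0.12 without that library. The median without other single libraries was not looked at.

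Markers of blood vessels are given here because Efnb2 is also an arterial gene. The summed level of 14 endothelial markers was 2.00, 40.3 and 0.853 CPM in the 3 Math1Hoxa5-IRES-GFP libraries and 3.02 to 28.3 CPM in the references, and 5 to 9 of the 14 had a count in a Math1Hoxa5-IRES-GFP library. Claudin 5 (Cldn5), a defining gene of brain endothelium, was at 0.140, 3.78 and 0 CPM there. The 10 pericyte markers summed to 18.0, 65.7 and 5.42 CPM against 2.50 to 28.0 CPM in the references, with a median fold change of 1.39 on the log2 scale and 0 of 9 tested markers past the threshold. In replicate 2 both sums were above every reference, and their part in the Efnb2 level was not tested. The pontine neuron markers summed to 6967 to 9742 CPM against 7247 to 9062 CPM in the references. In bulk libraries fewer cells with a transcript and less transcript per cell cannot be told apart.

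In Hoxa5tdTomato, Efnb2 stood at 37.0, 74.7 and 60.1 CPM. Replicates 1 and 3 lay below every reference, and replicate 2 lay among the creErt2 references. The fold change was -0.71 ± 0.27 against the 6 references (edgeR adjusted p = 0.202) and -0.42 ± 0.27 within set 1 (edgeR adjusted p = 0.758), neither past the threshold. No ephrin ligand passed in the comparison of Hoxa5tdTomato with the references, in which 1.73% of all tested genes passed (0.842% higher and 0.889% lower), or within set 1, where 0.557% passed (0.292% higher and 0.265% lower). At an unadjusted p under 0.05 the pooled comparison held Efnb2 (0.0161) and Efnb3 (0.0100), and DESeq2 called none of the 8 in it either. Within set 1 Efnb3 alone was under 0.05 unadjusted (edgeR, 0.00299), and DESeq2 called it. The share of all tested genes under 0.05 unadjusted was not counted for either comparison, so nothing is read from these unadjusted values.

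The difference between both conditions was tested as the change of Hoxa5tdTomato within set 1 minus that of Math1Hoxa5-IRES-GFP within set 2. For Efnb2 it was 1.29 ± 0.38 on the log2 scale (unadjusted p = 0.00407 and adjusted p = 0.522, both from edgeR). It did not pass, and neither did any of the 14732 genes with edgeR (0% of the background, against 54 genes with DESeq2). Of the ligands, Efnb2, Efna3 and Efna5 were under 0.05 unadjusted with edgeR, and DESeq2 called none. The share of all tested genes under 0.05 unadjusted was not counted for this difference, so nothing is read from these 3 ligands. A smaller fall of Efnb2 in Hoxa5tdTomato was therefore not shown.

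Efnb3, known as a midline barrier to corticospinal axons through the receptor EphA4, stood at 73.3, 52.1 and 60.0 CPM in the creErt2 references and at 72.4, 79.0 and 79.6 CPM in the tdT references. It stood at 115, 102 and 86.8 CPM in Hoxa5tdTomato and at 105, 92.6 and 133 CPM in Math1Hoxa5-IRES-GFP. All 6 libraries of both conditions lay above all 6 references. Of all tested genes 7.15% did so in Hoxa5tdTomato and 3.11% in Math1Hoxa5-IRES-GFP, and the share that did so in both was not counted. The fold changes were 0.54 ± 0.19 in Hoxa5tdTomato (edgeR adjusted p = 0.164) and 0.66 ± 0.19 in Math1Hoxa5-IRES-GFP (edgeR adjusted p = 0.0789), neither past the threshold. These comparisons share the 6 references. Within the sets, which share none, the values were 0.71 ± 0.20 (edgeR adjusted p = 0.179) and 0.51 ± 0.20 (edgeR adjusted p = 0.280). The call depended on the tool and on 1 library: DESeq2 called the value in Math1Hoxa5-IRES-GFP (adjusted p = 0.0205) and, within set 1, the value in Hoxa5tdTomato (adjusted p = 0.0325), and without Math1Hoxa5-IRES-GFP replicate 3 edgeR called Efnb3 within set 1 (0.71, adjusted p = 0.0411), where the calls over all genes went from 82 to 364. That library is not in set 1. Within its own set, leaving it out lowered the Math1Hoxa5-IRES-GFP value of Efnb3 from 0.51 to 0.36 (edgeR adjusted p = 0.395). Leaving out the other replicates of that group in turn gave 0.55 and 0.63 (edgeR adjusted p = 0.193 and 0.158). None of these values passed the threshold. The difference between the conditions was 0.20 ± 0.29 (edgeR adjusted p = 0.905).

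**Figure D2:**
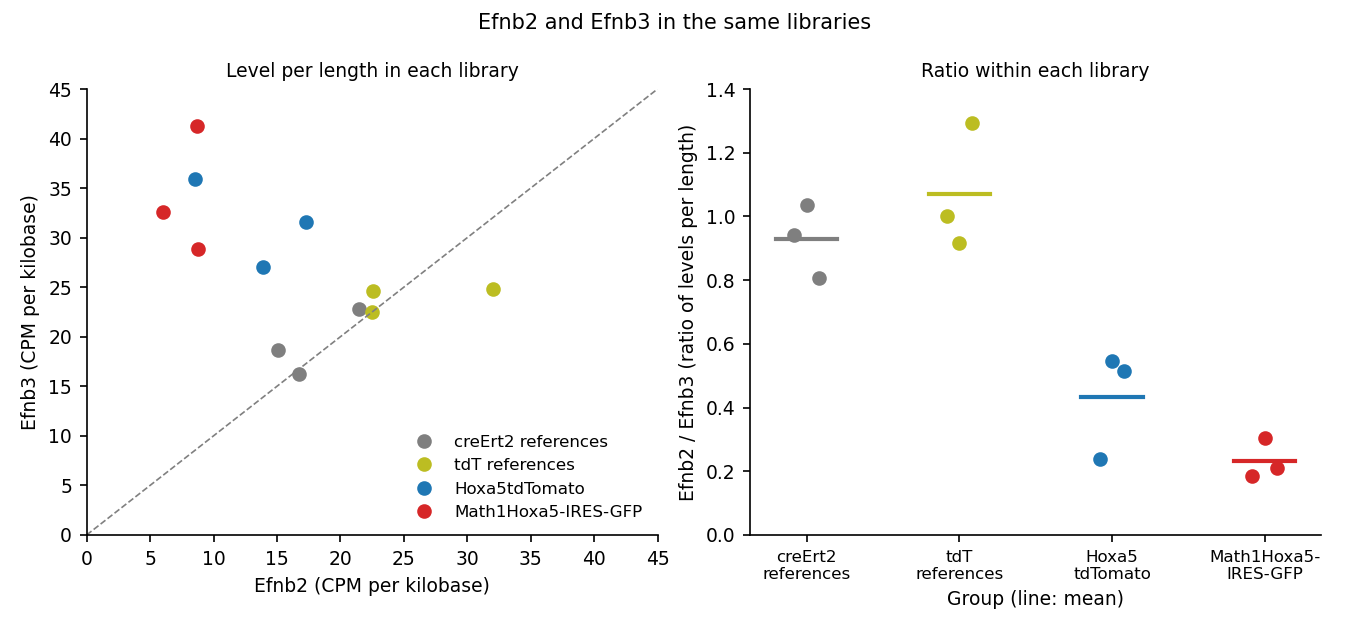
Left, level of Efnb3 against that of Efnb2 in CPM per kilobase, 1 point per library coloured by group, with a dashed line at equal levels; right, the ratio of Efnb2 to Efnb3 in each library by group, with lines at the group means. The 6 references lie around the line of equality with ratios of 0.807 to 1.29, and the libraries of both conditions lie above the line with ratios of 0.185 to 0.548.

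The ratio of Efnb2 to Efnb3 within a library does not depend on how libraries are scaled, and was looked at after the values of both genes had been seen. It was 0.943, 1.04 and 0.807 in the creErt2 references and 1.00, 0.917 and 1.29 in the tdT references. It was 0.239, 0.548 and 0.515 in Hoxa5tdTomato, and 0.185, 0.304 and 0.212 in Math1Hoxa5-IRES-GFP. The reference libraries thus held both ligands at nearly equal levels per length, and the libraries of both conditions held less Efnb2 than Efnb3, with no overlap. In Math1Hoxa5-IRES-GFP this had to be so, since Efnb2 lay below and Efnb3 above every reference. How many other pairs of genes have such a ratio was not counted, so the ratio adds no separate support. The summed level of the B ligands was 33.7 to 58.2 CPM per kilobase in the references, 42.3 to 49.7 in Hoxa5tdTomato and 38.5 to 51.2 in Math1Hoxa5-IRES-GFP, and these sums overlapped. The markers of other cells moved with the group in Hoxa5tdTomato: the 14 endothelial markers summed to 117 to 205 CPM and 10 pericyte markers to 119 to 250 CPM, with all 24 detected in every library, against up to 28.3 and 28.0 CPM in the references. Markers of the meninges (9.78 to 15.2 against at most 3.99 CPM) and of the oligodendrocyte lineage (144 to 178 against at most 133 CPM) also summed to more than in any reference, and the pontine neuron markers to less (5327 to 5759 against 7247 to 9062 CPM). Most of the pontine sum was 1 gene, Nfib, with means of 5368 and 5637 CPM in the creErt2 and tdT references and 3095 CPM in Hoxa5tdTomato. It was the 1 of 8 pontine markers past the threshold there, and the median fold change of the 8 was -0.18 on the log2 scale. A fall of the pontine markers as a set is therefore not read from the sum. Pax6 was lower too, at 161.4 to 205.2 CPM against 205.5 to 316.5 CPM in the references (-0.51, edgeR adjusted p = 0.244). Of the pontine markers only Slc17a7 and Mapt had fitted values above 0. Whether these markers fell as a set was not tested. The part of all these markers in the Efnb2 and Efnb3 levels of Hoxa5tdTomato was not tested.

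Efnb1, the X-linked B ligand of neural crest and progenitor cells, was low, at 2.40 to 9.34 CPM in the references. It stood at 2.56 to 4.57 CPM in Hoxa5tdTomato and at 10.6, 2.97 and 4.01 CPM in Math1Hoxa5-IRES-GFP, inside or near the range of the references. The libraries with low Xist held it at 5.93, 3.47 and 4.01 CPM, within the range of the others. Its fold changes were -0.59 ± 0.62 (edgeR adjusted p = 0.749) and 0.14 ± 0.60 (edgeR adjusted p = 0.935).

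Among the ligands with a lipid anchor, Efna5 was the most abundant. This gene is known for repelling retinal axons in the visual map of the midbrain. Its level was 116 to 189 CPM in the references, 121, 135 and 156 CPM in Hoxa5tdTomato and 171, 185 and 328 CPM in Math1Hoxa5-IRES-GFP. The value of 328 came from replicate 3, and the other libraries lay within the range of the references. The fold change was -0.24 ± 0.21 in Hoxa5tdTomato (edgeR adjusted p = 0.686). It was 0.49 ± 0.20 in Math1Hoxa5-IRES-GFP (edgeR adjusted p = 0.230), and 0.14 without replicate 3 (edgeR adjusted p = 0.780).

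Efna3, a ligand of several EphA receptors that is also found on astrocytes at synapses, lay above 49.0% of the tested genes per length in the references. Its level was 4.80 to 12.3 CPM in the references, 6.31, 3.16 and 5.76 CPM in Hoxa5tdTomato and 8.85, 9.98 and 33.5 CPM in Math1Hoxa5-IRES-GFP. Replicate 3 of Math1Hoxa5-IRES-GFP lay above all references and replicate 2 of Hoxa5tdTomato below them. The fold changes were -0.61 ± 0.53 (edgeR adjusted p = 0.678) and 1.17 ± 0.49 (edgeR adjusted p = 0.239), the second at 0.28 without replicate 3 (edgeR adjusted p = 0.839). The difference between the conditions was -2.22 ± 0.85 for Efna3 (edgeR adjusted p = 0.577) and -0.88 ± 0.33 for Efna5 (edgeR adjusted p = 0.577), neither past the threshold.

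Efna4, the neighbour of Efna3 on chromosome 3, stood at 6.84, 7.20 and 8.33 CPM in the creErt2 references, at 5.88, 6.75 and 2.70 CPM in the tdT references, at 4.63, 5.18 and 2.65 CPM in Hoxa5tdTomato and at 1.02, 1.71 and 0.451 CPM in Math1Hoxa5-IRES-GFP. All 3 Math1Hoxa5-IRES-GFP libraries lay below all references, on 22, 38 and 9 counts. The fold change of -2.55 ± 0.69 missed the threshold with edgeR (adjusted p = 0.0696) and passed with DESeq2 (adjusted p = 0.00109). Within set 2 it was -2.26 ± 0.73, which again missed with edgeR (adjusted p = 0.186) and passed with DESeq2 (adjusted p = 0.0278). In Hoxa5tdTomato it was -0.59 ± 0.62 (edgeR adjusted p = 0.747). The antisense gene over its exons bears on these counts as stated above.

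Efna2, which acts with Efna5 in the visual map of the midbrain, varied more within groups than between them. It stood at 7.19 to 23.6 CPM in the references, 10.1 to 15.9 CPM in Hoxa5tdTomato and 8.01, 12.8 and 31.1 CPM in Math1Hoxa5-IRES-GFP, with fold changes of -0.18 ± 0.49 (edgeR adjusted p = 0.922) and 0.33 ± 0.48 (edgeR adjusted p = 0.776). Efna1, a ligand prominent in endothelium, was close to the limit of detection. It had 0, 5 and 13 counts in the creErt2 references, 62, 2 and 19 in the tdT references, 11, 27 and 34 in Hoxa5tdTomato and 104, 4 and 0 in Math1Hoxa5-IRES-GFP. Scaled to library size these were 0, 0.444 and 1.18 CPM in the creErt2 references and 2.21, 0.0906 and 0.814 CPM in the tdT references. They were 0.978, 1.82 and 3.11 CPM in Hoxa5tdTomato and 4.84, 0.180 and 0 CPM in Math1Hoxa5-IRES-GFP. For comparison, 3 counts, the upper limit that a count of 0 allows for counting error alone, are worth 0.107 to 0.274 CPM. Its fold changes were 1.30 ± 1.38 (edgeR adjusted p = 0.753) and 1.07 ± 1.38 (edgeR adjusted p = 0.743), neither past the threshold, with counts of 0 to 104 within the Math1Hoxa5-IRES-GFP libraries. The library with 104 counts was Math1Hoxa5-IRES-GFP replicate 1, where the endothelial markers summed to 2.00 CPM. In Hoxa5tdTomato the higher sum of these markers, given above, went with 11 to 34 Efna1 counts, or 0.978 to 3.11 CPM in this shallower set. The part of these markers in the Efna1 level was not tested.

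**Figure D3:**
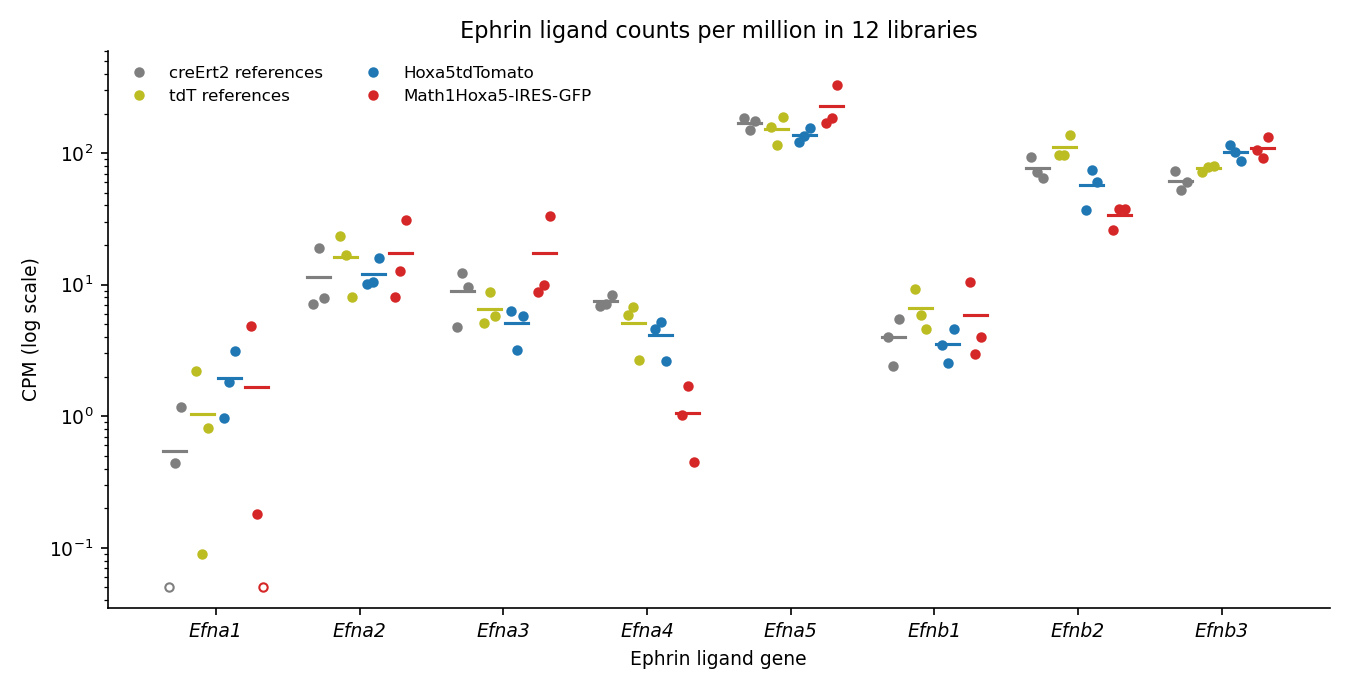
CPM of each ephrin ligand (horizontal axis) on a log scale, 1 point per library and a line at each group mean; the open circles at the bottom are libraries with a count of 0. Efnb2 and Efna4 are lower in all 3 Math1Hoxa5-IRES-GFP libraries than in any reference, and Efnb3 is higher in all 6 libraries of both conditions.

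Counted over the family, 1 of 8 ligands had Hoxa5tdTomato libraries that did not overlap with the 6 references (Efnb3), where 14.1% of all tested genes had this property (7.15% higher and 6.93% lower). Within set 1 there were 2 of 8 (Efnb3 higher, Efna4 lower), against 25.3% (12.7% in each direction). For Math1Hoxa5-IRES-GFP there were 3 of 8 (Efnb2 and Efna4 lower, Efnb3 higher), against 6.37% (3.11% higher and 3.27% lower), and the same 3 within set 2, against 12.5% (6.01% higher and 6.46% lower). The median fold change of the 8 ligands in Hoxa5tdTomato was -0.41, against 0.00 for all tested genes, with 2 of 8 above 0. Within set 1 the median was smaller in size, at -0.24, and no ligand passed in either comparison.

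**Figure D4:**
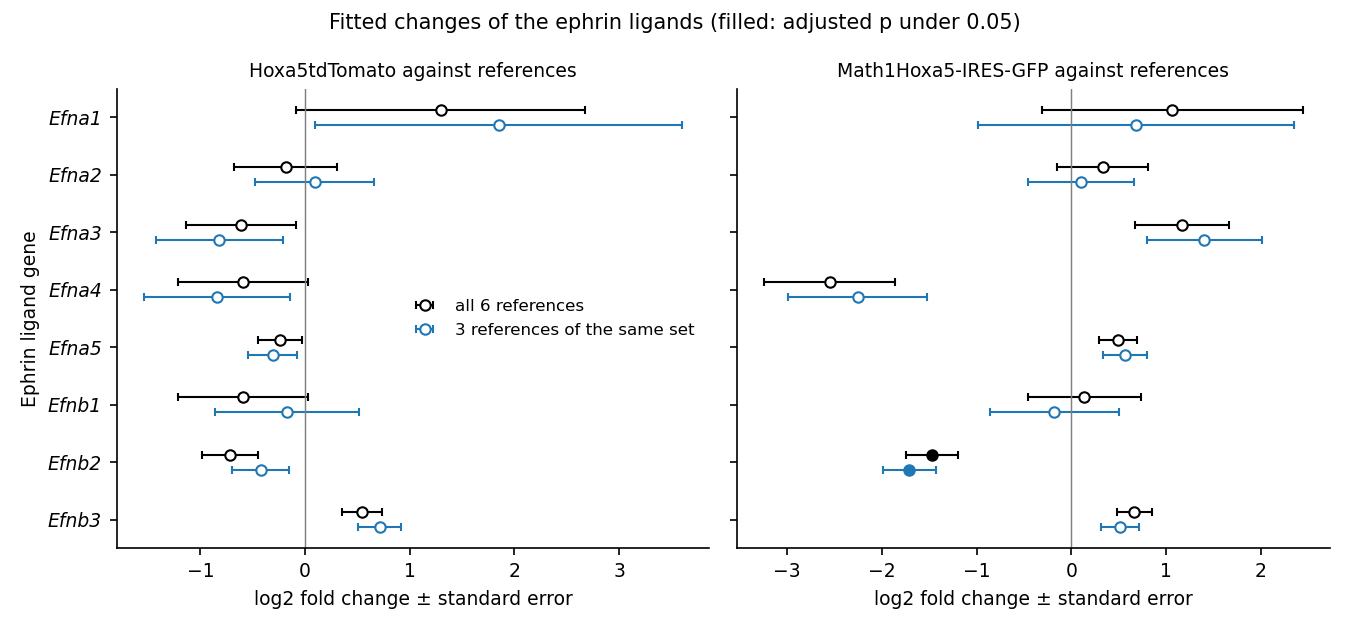
Log2 fold change of each ephrin ligand with its standard error (horizontal axis) in Hoxa5tdTomato (left) and Math1Hoxa5-IRES-GFP (right), against all 6 references (black) or the 3 references of the same set (blue); filled points passed an adjusted p of 0.05. Only Efnb2 in Math1Hoxa5-IRES-GFP is filled, at -1.47 and -1.71.

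Both kinds of reference were compared directly, since the pooled comparison leaves the set out. No ephrin ligand passed between the creErt2 and tdT references, where 1.34% of all tested genes did. Efnb2 was at -0.53 ± 0.27 (edgeR adjusted p = 0.437), with all 3 creErt2 references below all tdT references, and Efna4 was at 0.54 ± 0.69 (edgeR adjusted p = 0.845), with all 3 above. The share of all tested genes without overlap was not counted for this comparison. It was 25.3% within set 1 and 12.5% within set 2, also with 3 libraries on each side, so nothing is read from these 2 ligands. At an unadjusted p no ligand was under 0.05, the lowest being Efnb2 at 0.0673, and DESeq2 called none.

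The promoters of Efnb2 and Efna4, the ligands lower in all Math1Hoxa5-IRES-GFP libraries, are shown as the 250 bases before the transcription start (RefSeq, GRCm38.p6, minus strand, 5′ to 3′). Promoters were found for 7 of the 8 ligands, with none for Efnb3. Capitals mark TAAT, the core that homeodomain proteins such as Hoxa5 bind, and CCAAT, on either strand, where ATTA and ATTGG are the reverse complements.
Efnb2 (chr8:8661243-8661492): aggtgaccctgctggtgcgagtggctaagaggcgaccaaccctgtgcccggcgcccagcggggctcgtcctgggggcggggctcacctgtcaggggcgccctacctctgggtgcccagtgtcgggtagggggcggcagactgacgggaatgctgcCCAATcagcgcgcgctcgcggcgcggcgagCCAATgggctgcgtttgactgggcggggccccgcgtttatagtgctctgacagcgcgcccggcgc
Efna4 (chr3:89338029-89338278): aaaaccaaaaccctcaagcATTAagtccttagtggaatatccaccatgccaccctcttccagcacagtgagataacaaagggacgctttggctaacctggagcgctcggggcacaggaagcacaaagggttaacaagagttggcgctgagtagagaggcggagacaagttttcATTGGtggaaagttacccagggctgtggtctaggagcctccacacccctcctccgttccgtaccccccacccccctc
The Efnb2 window held 0 matches to TAAT and 2 to CCAAT, and the Efna4 window 1 of each. TAAT occurred in 54.9% and CCAAT in 33.8% of all 32851 promoter windows of this length. The Hox and Pbx motif TGATNNAT was in neither window and in 7.68% of all windows. The Efnb2 window was 72.0% GC, that of Efna4 54.4%, and the median window 52.4%. Among the ligands not shown, an Efna1 window held 2 matches to TAAT and the Efnb1 window 1 to CCAAT, so nothing is read from the matches.

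The receptors for these ligands were measured in the same libraries. Of the 14 Eph receptor genes 13 were tested, and Epha2 was at 0 CPM in the references. The highest per length in the references were Epha3 (31.2 CPM per kilobase) among the A receptors and Ephb2 (23.1) among the B receptors. In Hoxa5tdTomato 0 of the 13 rose and 2 fell, where 1.73% of all tested genes passed and 0.889% fell. They were Ephb1 at -1.11 ± 0.20 (edgeR adjusted p = 0.0104), also within set 1 (-1.13, edgeR adjusted p = 0.0296), and Epha3 at -1.53 ± 0.32 (edgeR adjusted p = 0.0220), not past the threshold within set 1 (edgeR adjusted p = 0.0940). Ephb4, the partner of Efnb2 named above, was near the bottom at 0.246 CPM per kilobase in the references. In Math1Hoxa5-IRES-GFP 0 of the 13 passed with edgeR, against 1.84% of all tested genes. Epha3, Epha5, Epha10 and Ephb6 were under 0.05 unadjusted there, and Epha3, Epha7, Epha10, Ephb1 and Ephb2 in Hoxa5tdTomato. The share of all tested genes under 0.05 unadjusted was not counted, so nothing is read from these unadjusted values. Ephb2, a receptor of Efnb2, was at 158 CPM in Math1Hoxa5-IRES-GFP against 125 and 168 CPM in the creErt2 and tdT references (0.10 ± 0.21, edgeR adjusted p = 0.842).

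Of 33 genes of ephrin and Eph signalling, which code for adaptors, kinases, exchange factors and proteases, all were tested. In Hoxa5tdTomato 1 rose, Grb10 (1.69 ± 0.28, edgeR adjusted p = 0.00605), an adaptor of receptor tyrosine kinases, and 1 fell, the adaptor gene Crkl (-1.06 ± 0.25, edgeR adjusted p = 0.0439). Grb10 passed within set 1 (1.35, edgeR adjusted p = 0.0488) and Crkl did not (-0.64, edgeR adjusted p = 0.290). In Math1Hoxa5-IRES-GFP 1 rose, Anks1b (0.64 ± 0.15, edgeR adjusted p = 0.0296), a postsynaptic scaffold, and 1 fell, Kalrn (-0.68 ± 0.14, edgeR adjusted p = 0.0172), an exchange factor that acts downstream of EphB receptors in dendritic spines. Anks1b passed within set 2 (0.73, edgeR adjusted p = 0.0435) and Kalrn did not (-0.59, edgeR adjusted p = 0.0729). These counts of 2 of 33 in each condition stand beside 1.73% and 1.84% of all tested genes, and nothing is read from them for the list. The medians of the 33 genes were -0.26 and 0.10.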

How the data were processed

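RNA of sorted pontine neurons was amplified by SPIA before library preparation, per the labels' protocols. The authors deposited raw read counts per gene for 12 libraries, with gene symbol and length and no normalization. The submitters' processing notes name build mm10 and bcl2fastq 1.8.4; for the aligner, counting tool and annotation, no source used here gives a name. Genes were kept with filterByExpr at a minimum count of 10 (14732 of 23079) and scaled with TMM factors. Conditions were tested with edgeR 4.0.16 in R 4.3.3 (quasi-likelihood F test, 1 mean per group, common dispersion 0.312), and within sets with 4 group means; the standard error is the fold change divided by the square root of F. Alternatives included DESeq2 1.42.0. The code was tested on simulated data. Receptors and signalling genes are named where they passed or, for receptors, were highest per length. Members, lists and tests were chosen with earlier results of these data known.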

Additional observations from a re-analysis of the deposited data

How the results depend on the processing

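Efnb2 in Math1Hoxa5-IRES-GFP kept its direction and call in all 20 alternatives, at -1.71 to -1.31. There 1 ligand passed, and 3 with DESeq2 (Efna4 and Efnb3 added); Hoxa5tdTomato against the 6 references, the difference and the references against each other kept 0. Within sets, Efnb3 passed in set 1 with DESeq2 (0.0325) and without Math1Hoxa5-IRES-GFP replicate 3 (0.0411), and Efna4 in set 2 with DESeq2 (0.0278). Of 608 alternative values of single ligands, 28 had the other sign, none past 0.05. Without a replicate, the ranges were -0.43 to 0.0659 (Efna2, Hoxa5tdTomato), -3.03 to 1.72 (Efna1), -0.61 to 0.46 (Efnb1) and -0.40 to 0.67 (Efna2) in Math1Hoxa5-IRES-GFP, -0.37 to 0.72 (Efna2) and -0.29 to 0.75 (Efnb1) for the difference, and -2.20 to 0.24 (Efna1) and -0.028 to 0.31 (Efna5) between references. Within sets Efna2 was at 0.0942 in Hoxa5tdTomato and Efnb1 at -0.18 in Math1Hoxa5-IRES-GFP. The difference for Efna2, -0.0056, was 0.008 with DESeq2 and RLE factors, 0.22 with library size only, 0.0234 unfiltered and 0.0315 on thinned counts. The cause was not tested.

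The replicate numbers did not pair the libraries (correlations of same-numbered deviations -0.03 to 0.05). With a replicate block, 72 genes passed in Hoxa5tdTomato (255 without) and 77 in Math1Hoxa5-IRES-GFP (271 without), Efnb2 stayed called at -1.71 (adjusted p = 0.0186), Efna2 was at 0.21 and -0.0434, and Efna1 at -0.45 and Efnb1 at -0.34 in Math1Hoxa5-IRES-GFP. With DESeq2, 622 and 831 genes passed, 54 for the difference (0 with edgeR) and 589 between references (197 with edgeR). Without a replicate, 35 to 728 genes passed in Hoxa5tdTomato, the most without Math1Hoxa5-IRES-GFP replicate 3, 190 to 575 in Math1Hoxa5-IRES-GFP, 40 to 784 between references and 0 to 3 for the difference. Within-set fits without single libraries were chosen after seeing the data; Efnb2 stayed called there, at adjusted p up to 0.0461 (without tdT reference replicate 3). Efna4 rests on few counts in Math1Hoxa5-IRES-GFP.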

Other observations

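Genes with a pattern like that of a ligand were looked up for the 6 ligands with at least 10 counts in all 12 libraries, by Pearson's r of log2 CPM over the 12 libraries. The libraries share groups, sets and depth, so these are descriptions. Nearest to Efnb2 were Fbxl7 (0.89), an F-box gene, the adhesion gene Ncam2 (0.89) and Palmd (0.88). With the 4 group means removed their r was 0.71, 0.37 and 0.32, so that for Ncam2 and Palmd the likeness lay mostly between groups. Nearest to Efnb3 were Atp2b1 (0.95), a calcium pump of the plasma membrane, Plcb1 (0.92) and Tmem44 (0.91), at 0.75, 0.60 and 0.58 with the means removed. Nearest to Efna5 were Clcn5 (0.94), Zfp280d (0.94) and Brsk1 (0.93), to Efna3 Ccndbp1 (0.94), Lpin2 (0.93) and Cops2 (0.90), to Efna2 Bmf (0.92), Ift52 (0.87) and Ncoa3 (0.87), and to Efnb1 Mdc1 (0.91), Gnaz (0.89) and Eps8l3 (0.85). With the means removed, r for these genes ran from 0.81 (Cops2) to 0.94 (Ncoa3). Among the ligands themselves r ran from -0.73 (Efna4 and Efnb3) to 0.65 (Efna3 and Efna5), with Efnb2 and Efnb3 at -0.59 and Efnb2 and Efna4 at 0.63.

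The levels of Hoxa5 and Efnb2 are set side by side here by library, with no test. In Math1Hoxa5-IRES-GFP, replicates 1 and 2 had Hoxa5 at 9.73 and 16.8 CPM, within the range of the references, and replicate 3 had it at 82.0 CPM, while Efnb2 stood at 26.1, 37.9 and 37.7 CPM. The Hoxa5tdTomato libraries, with Hoxa5 at 127, 222 and 119 CPM, held Efnb2 at 37.0, 74.7 and 60.1 CPM. Which part of a Hoxa5 transcript the allele carries is not given in the sources used here.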
